A study of Homo sapiens with 6 samples.

Results

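ACTB, ACTG1, CFL1, PFN1 and TMSB10 encode the cytoplasmic actins and 3 small proteins that bind actin. Their transcripts were followed through PAR-CLIP libraries of HuR and of a control protein. The members were taken by name, and their sites were those on the strand of the gene whose midpoint lay within its GENCODE span on hg19. They are 5 of 19894 protein-coding genes with a canonical coding transcript, and they held 737 of the 10639684 sites summed over the 6 libraries. By library, the members had 130 sites in G20, 53 in G35, 63 in G45, 106 in HuR replicate 1, 182 in HuR replicate 2 and 203 in Total.

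HEK293, a long-established line derived from human embryonic kidney, was the source of every library, and the cells were grown with the nucleoside analog 4SU, irradiated with long-wave UV light and digested with RNase T1. In PAR-CLIP, reverse transcription reads a crosslinked 4SU as C, so a T-to-C conversion is taken as a sign of a crosslink. The paper cites a lower rate of conversion for 4SU RNA that was not crosslinked, so a single conversion is no proof of a crosslink. The background group was FLAG-tagged GFP, which is not known to bind RNA, precipitated with the FLAG M2 antibody and cut from the gel at about 20, 35 and 45 kDa (G20, G35 and G45). The HuR group was FLAG-tagged HuR precipitated with the same antibody, in 2 replicates, and Total was RNA of a lysate treated likewise, with no precipitated protein, digested with proteinase K and depleted of rRNA. Both tagged proteins were expressed from an inducible construct in stable lines, so HuR was present beside the HuR of the host cell. The 3 slices are different gel regions of the control and Total is a single library, so a p-value of HuR against background measures the spread between these libraries only. The libraries held between 6187300 (G35) and 38644636 (G20) reads at sites, which sets the level of 3 reads between 0.0776 and 0.485 RPM (reads scaled by the total of a library's reads at sites). Protein-coding mRNA received 1.97% of the reads in G20, 5.86% in G35, 4.41% in G45, 6.93% and 9.58% in HuR replicates 1 and 2, and 15.3% in Total.

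HuR (ELAVL1) is an RNA-binding protein of the ELAV family, whose RNA recognition motifs bind U-rich and AU-rich stretches, mostly in 3'UTRs and introns, and which is known for keeping many of its target mRNAs stable. Actin exists as monomers and as filaments. ACTB and ACTG1 supply the non-muscle subunits, CFL1 (cofilin) severs and disassembles filaments, PFN1 (profilin) carries monomers to growing filament ends, and TMSB10 (thymosin beta 10) holds monomers apart from filaments. The ACTB 3'UTR has been described as a HuR target and was chosen for that reason, so a HuR site there was known beforehand.

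The sequences below are shown because they lie at the mode that PARalyzer gave for the most read 3'UTR site of the library named, or at the midpoint of the site where no cluster was called. They run 5' to 3' on the strand of the gene in the DNA alphabet, and the capitals mark a U-rich run (TTTTT), the short AU-rich element (ATTTA) or the longer element with a central A (TTTATTT), which can overlap each other and were searched on the strand of the gene only. Positions are hg19, on the minus strand except for TMSB10.
ACTB, HuR replicate 1, chr7:5567285-5567314: atgagattggcatggcTTTATTTgTTTTTT
ACTB, HuR replicate 2, chr7:5567247-5567276: ttttggTTTTTTTTTTTTTTTTggcttgac
ACTG1, HuR replicate 1, chr17:79477126-79477155: atgtattcattcttaATTTAtgtaaggttt
ACTG1, HuR replicate 2, chr17:79477232-79477261: tccaagccgtaggacccagtttcctttctt
CFL1, HuR replicate 1, chr11:65622621-65622645: attttccttctccctccatcccttg
CFL1, HuR replicate 2, chr11:65622546-65622575: tgggctgaagcagaccaagttccccccagg
TMSB10, HuR replicate 2, chr2:85133731-85133760: tttgccccgggatattatagaaaattattt
The windows of ACTB hold U-rich runs, that of ACTG1 in HuR replicate 1 holds ATTTA, and those of ACTG1 in HuR replicate 2, of CFL1 and of TMSB10 hold none of the motifs.

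On the ACTB mRNA, HuR reads lay mostly in the 3'UTR and reads of the other libraries mostly in the coding sequence. The ACTB 3'UTR (chr7:5566779-5567378, 600 nt in 1 exon) held 0.957 RPM in G20, 2.42 in G35, 7.16 in G45, 5.88 in HuR replicate 1, 74.0 in HuR replicate 2 and 1.98 in Total. HuR replicate 2 stood far above all others, while HuR replicate 1 lay below G45, so the groups overlapped. The ACTB coding sequence (1128 nt in 5 blocks) held 15.4 RPM in G20, 8.73 in G35, 13.7 in G45, 3.15 in HuR replicate 1, 10.03 in HuR replicate 2 and 41.2 in Total. Total was highest there, and HuR replicate 2 lay within the range of the slices.

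ACTG1 had its HuR reads in the distal 3'UTR. Its 3'UTR (chr17:79476997-79477715, 719 nt) held 3.83 RPM in G20, 2.75 in G35, 3.45 in G45, 7.45 in HuR replicate 1, 34.1 in HuR replicate 2 and 61.8 in Total. Both HuR replicates were above all slices and below Total. The coding sequence held 12.8 RPM in G20, 12.4 in G35, 4.38 in G45, 0.840 in HuR replicate 1, 1.93 in HuR replicate 2 and 33.2 in Total, with both HuR replicates below all slices.

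The CFL1 3'UTR (chr11:65622144-65622806, 663 nt) held 2.28 RPM in G20, 2.10 in G35, 3.98 in G45, 2.73 in HuR replicate 1, 20.5 in HuR replicate 2 and 5.40 in Total. HuR replicate 1, with 26 reads, lay among the slices. In the CFL1 coding sequence (501 nt) the level was 6.13 RPM in G20, 4.2 in G35, 1.46 in G45, 0.105 in HuR replicate 1 (1 read), 0.374 in HuR replicate 2 (12 reads) and 2.17 in Total, and the HuR replicates were again below all slices.

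PFN1 had the highest HuR level per length among the members, in the 3'UTR. The PFN1 3'UTR (chr17:4848947-4849194, 248 nt) held 1.73 RPM in G20, 4.36 in G35, 3.05 in G45, 20.6 in HuR replicate 1, 116 in HuR replicate 2 and 69.8 in Total. Both HuR replicates lay above all slices, and Total lay between them. Its coding sequence (423 nt) held 2.17 RPM in G20, 0.970 in G35, 5.17 in G45, 0.315 in HuR replicate 1 (3 reads), 3.11 in HuR replicate 2 and 26.2 in Total, so the groups overlapped.

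TMSB10 had few reads in any library. Its 3'UTR (chr2:85133548-85133795, 248 nt) held 1.01 RPM in G20, 2.10 in G35, 0.796 in G45, 0.420 in HuR replicate 1 (4 reads), 0.498 in HuR replicate 2 (16 reads) and 3.20 in Total (115 reads). Unlike in the other members, both HuR replicates were below all slices. The coding sequence had at most 18 reads in a library, and no read in G35 and HuR replicate 1.

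Per length of 3'UTR, the order in HuR replicate 2 was PFN1 (466 RPM per kb), ACTB (123), ACTG1 (47.4), CFL1 (30.9) and TMSB10 (2.01). In HuR replicate 1 it was PFN1 (83.0), ACTG1 (10.4), ACTB (9.80), CFL1 (4.12) and TMSB10 (1.69), so ACTB and ACTG1 changed places there with a small gap. In Total the order was PFN1 (281), ACTG1 (85.9), TMSB10 (12.9), CFL1 (8.15) and ACTB (3.29), which puts ACTB last. RPM also depends on a few sites, since leaving the 10 most read sites out of the totals brought G20 from 38644636 to 9090648 reads and Total from 35924998 to 13680653. On those totals HuR replicate 1 lay below G20 in the ACTG1 3'UTR (7.75 against 16.3 RPM), HuR replicate 2 lay below all slices in the ACTB coding sequence (10.3 against 10.9 to 65.3 RPM), and Total lay above both HuR replicates in the PFN1 3'UTR (183 against 21.4 and 119 RPM). Reads at a site grow with the amount of an RNA and with its recovery, and these counts do not tell the contributions apart.

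**Figure D1:**
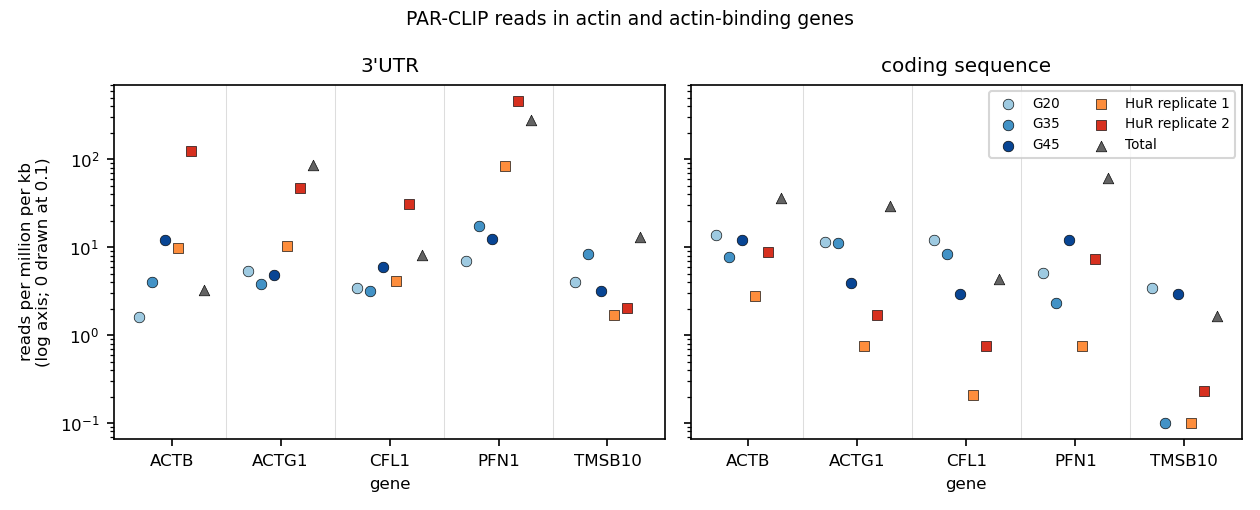
Reads per kilobase in RPM per kb (log axis, 0 drawn at 0.1) in the 3'UTR (left) and the coding sequence (right) of each gene, with 1 point per library: circles for the background slices, squares for HuR and triangles for Total. In the 3'UTR the HuR replicate 2 square of PFN1 (466) is highest, followed by the Total triangle of PFN1 (281) and the HuR replicate 2 square of ACTB (123), whereas in the coding sequence the Total triangles of ACTB, ACTG1 and PFN1 stand above all other points.

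The share of the mRNA reads (coding, 3'UTR and 5'UTR) that lay in the 3'UTR compares regions within a library and so needs no scaling between libraries. For ACTB the 3'UTR share was 5.61% in G20 (95% Wilson interval 4.09 to 7.63), 19.5% in G35 (12.2 to 29.7), 33.1% in G45 (26.4 to 40.7) and 4.46% in Total (3.55 to 5.59). It was 63.6% in HuR replicate 1 (53.2 to 72.9) and 87.9% in HuR replicate 2 (86.7 to 89.1). The intervals of both HuR replicates lay above those of every other library. Intervals cover counting error only, since the reads carried no molecular identifiers.

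In ACTG1 the 3'UTR share was 88.8% and 94.5% in HuR replicates 1 and 2, against 21.1% in G20, 17.7% in G35, 44.1% in G45 and 63.4% in Total. In CFL1 it was 92.9% and 97.6% in HuR, against 25.1%, 28.3% and 73.2% in the slices and 57.6% in Total. The PFN1 3'UTR share was 98.0% and 97.2% in HuR, against 16.1% in G20, 81.8% in G35 (33 reads), 35.9% in G45 and 70.8% in Total. In these genes, too, the values of the HuR replicates lay above those of the slices, though the Wilson intervals of CFL1 in HuR replicate 1 (77.4 to 98.0) and G45 (58.1 to 84.3) overlapped. How large a share of all genes separates in this way was not counted.

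For TMSB10 the groups overlapped. Its 3'UTR share was 49.4% in G20, 100% in G35 (13 of 13 reads), 30% in G45, 100% in HuR replicate 1 (4 of 4 reads), 69.6% in HuR replicate 2 (16 of 23 reads) and 89.1% in Total.

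Averaged over libraries, the HuR share exceeded the background share by 56.4 percentage points in ACTB, 75.8% ± 17.2 (SD, n = 2) against 19.4% ± 13.8 (n = 3). The difference was 64.0 points in ACTG1, 53.1 in CFL1, 53.0 in PFN1 and 24.99 in TMSB10. An exact two-sided permutation test over the samples gave p = 0.2 in each of ACTB, ACTG1, CFL1 and PFN1, which is the smallest p that 2 against 3 samples allow, and p = 0.6 in TMSB10 (exact permutation test). Among all genes with at least 50 mRNA reads in a library, the median 3'UTR share was 91.8% and 91.0% in HuR replicates 1 and 2, 18.3% in G20, 30.4% in G35, 41.8% in G45 and 40.9% in Total. The HuR shares of ACTB were thus below the median gene, and those of CFL1 and PFN1 above it, in each replicate. Pooled over the mRNA reads of all other genes, the 3'UTR share was 41.9% and 86.1% in HuR replicates 1 and 2. It was 23.5% in G20, 29.6% in G35, 33.4% in G45 and 26.8% in Total. Against this pooled share ACTB lay above in both HuR replicates, so its position depends on the reference. The PFN1 difference depended on how its long 3'UTR site was counted: it was -17.2 points without the site with the most reads of each region in each library and -25.2 points when sites were counted in place of reads. It was 3.27 points when any overlap with coding sequence made a site coding, since the HuR replicate 2 site that holds 3710 of 3713 reads begins 6 nt before the end of the stop codon.

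**Figure D2:**
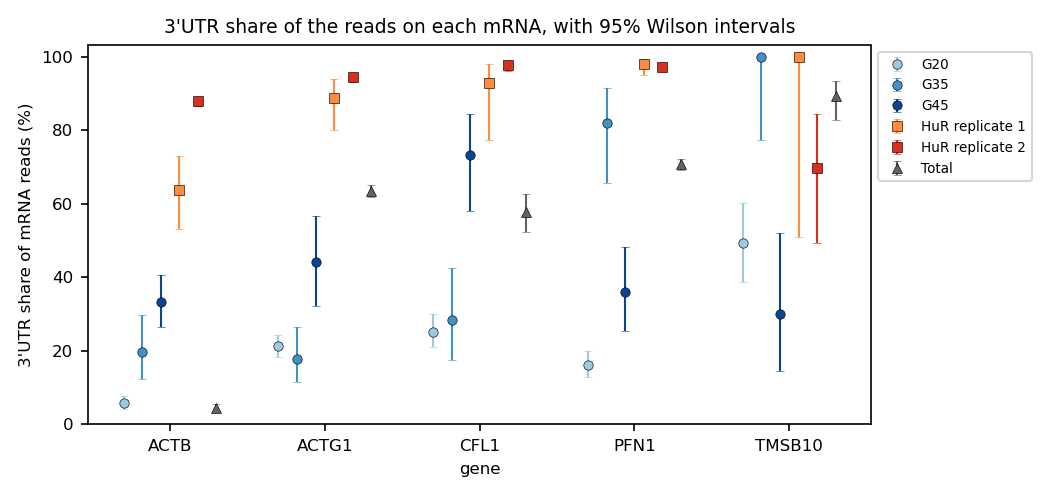
Share of each gene's mRNA reads that lay in the 3'UTR (%), with 1 point per library and 95% Wilson intervals as bars. In ACTB, ACTG1, CFL1 and PFN1 both HuR squares lie above all background circles, and in TMSB10 the points of the groups overlap, with 4 reads behind HuR replicate 1.

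The change of the 3'UTR to coding ratio from background to HuR was then tested across all genes, with edgeR's quasi-likelihood test of the interaction. ACTB, ACTG1, CFL1 and PFN1 passed, all higher in HuR, and TMSB10 had too few coding reads to be tested. The log2 change of the ratio was 4.15 ± 1.44 (SE) in ACTB (adjusted p = 0.0263), 5.11 ± 1.34 in ACTG1 (adjusted p = 0.0117), 5.80 ± 1.53 in CFL1 (adjusted p = 0.0119) and 5.30 ± 1.43 in PFN1 (adjusted p = 0.0123). Of the 1517 genes tested, 55% were called higher in HuR and 0% lower, and the median log2 change was 3.90. Coding sequences could pass the filter on low counts through the slices alone, so these calls and shares are not independent of it. The 4 members ranked 667 (ACTB), 350 (ACTG1), 302 (PFN1) and 181 (CFL1) from the highest. Leaving out HuR replicate 1 or HuR replicate 2 ended all calls, those of the members included, with log2 changes of 5.11 and 3.13 in ACTB, 5.57 and 4.57 in ACTG1, 6.15 and 5.001 in CFL1, and 4.95 and 5.75 in PFN1. The call of ACTB also ended without G35 (4.38, adjusted p = 0.0584 in edgeR), while that of PFN1 turned to -2.28 (adjusted p = 0.772 in edgeR) under the any-overlap rule above. All 4 were lost without the filter on low counts (adjusted p from 0.126 to 0.201 in edgeR) and with sites of 5 or more reads (0.0777 to 0.183), and those of ACTB, CFL1 and PFN1 with clusters in place of sites (0.0973, 0.0695 and 0.0692). TMSB10 did not pass without that filter (2.11, adjusted p = 0.705 in edgeR) or without G35 (3.08, adjusted p = 0.201 in edgeR). Without HuR replicate 1 its log2 change was 1.70.

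**Figure D3:**
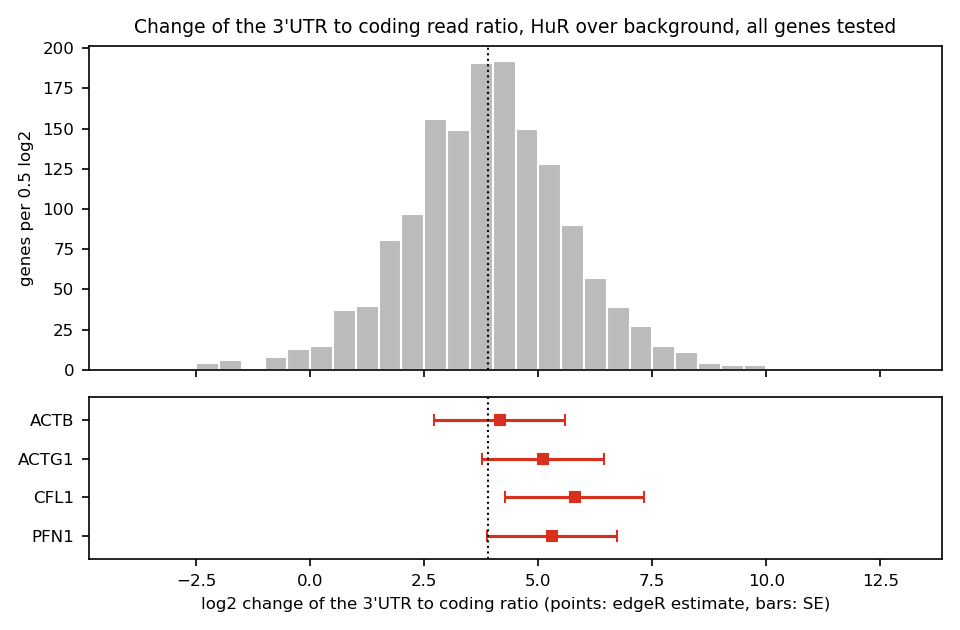
Top, histogram of the log2 change of the 3'UTR to coding read ratio, HuR over background, for the 1517 genes tested. Bottom, the estimates of the 4 members tested with SE bars; the dotted line is the median of all genes (3.90), and ACTB (4.15) lies nearest to it.

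The level of each gene region was tested in the same way. In the coding sequence ACTB fell by 3.94 ± 0.99 (SE) on the log2 scale, ACTG1 fell by 5.80 ± 1.15 and CFL1 fell by 7.05 ± 1.41 (adjusted p = 0.0352, 0.0320 and 0.0320 in edgeR), whereas PFN1 was at -3.46 ± 1.19 (adjusted p = 0.0712 in edgeR). In the 3'UTR none of the 4 members tested passed: the log2 difference was 1.15 ± 0.86 in ACTB, 1.91 ± 0.72 in PFN1, -0.76 ± 0.92 in CFL1 and -0.38 ± 0.87 in ACTG1, with adjusted p of 0.374, 0.0901, 0.590 and 0.790 in edgeR. Of all coding regions 39.3% were called lower and 0% higher, with a median of -3.81, and of all 3'UTRs 1.09% were called higher and 1.54% lower, with a median of 0.88. A region could pass the filter on low counts through the background alone. The coding sequences of ACTG1, CFL1 and PFN1 had 8, 1 and 3 reads in HuR replicate 1 and passed only with reads of the slices. The coding calls and the 39.3% are thus not independent of the filter. Over all 19181 regions the shares were 1.77% higher and 8.36% lower, with 2.55% and 2.28% in introns and 0.382% and 38.5% in 5'UTRs. The PFN1 intron, the only member intron tested, was at -0.27 ± 1.39 (adjusted p = 0.908 in edgeR). The 3'UTR of PFN1 passed without HuR replicate 1 (3.35, adjusted p = 0.0121 in edgeR), without the filter on low counts (2.80, adjusted p = 0.0370) and with conversion events in place of reads (2.94, adjusted p = 0.0144), and that of ACTB without HuR replicate 1 (2.72, adjusted p = 0.0402 in edgeR). These levels rest on the scaling. TMM gave G20 a factor of 0.168 and the HuR replicates 2.27 and 2.33, and scaling by the library total alone moved the median of all regions from 0.26 to 2.53. It turned CFL1 and ACTG1 in the 3'UTR to 2.06 and 2.63, and it gave calls to the 3'UTRs of ACTB (3.52, adjusted p = 0.0341 in edgeR) and PFN1 (4.49, adjusted p = 0.0183 in edgeR). Relative to the median of all regions, the coding sequences lay between -7.31 (CFL1) and -3.72 (PFN1) with TMM and between -6.43 (CFL1) and -3.19 (PFN1) with the library total. Without that reference the library total ended the coding calls of ACTB (-0.93, adjusted p = 0.569 in edgeR) and ACTG1 (-2.81, adjusted p = 0.101 in edgeR), and that of CFL1 held (-3.90, adjusted p = 0.0376 in edgeR). RLE scaling ended the coding calls of ACTB, ACTG1 and CFL1 (adjusted p = 0.0539, 0.0534 and 0.0534 in edgeR). The calls of ACTB, ACTG1 and CFL1 were lost without G20 (adjusted p = 0.0551, 0.0518 and 0.0534 in edgeR) and without HuR replicate 2 (0.185, 0.134 and 0.132), and that of ACTB also without HuR replicate 1 (-2.68, adjusted p = 0.125 in edgeR). PFN1 passed without G35 (-3.50, adjusted p = 0.0380 in edgeR) and in DESeq2 (-3.72, adjusted p = 0.00769).

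Total holds the members' sites in the RNA of the lysate, but its level can differ between regions of the same mRNA. In ACTB, Total had 36.5 RPM per kb in the coding sequence and 3.29 in the 3'UTR (71 reads). The 3'UTR folds of ACTB thus rest on a low level in Total. Over the whole ACTB mRNA, HuR replicates 1 and 2 had 9.24 and 84.2 RPM, and Total had 44.3. In the 3'UTR the fold of RPM over Total was 2.97 and 37.5 for ACTB in HuR replicates 1 and 2, 0.505 and 3.79 for CFL1, 0.295 and 1.66 for PFN1, 0.121 and 0.552 for ACTG1, and 0.131 and 0.156 for TMSB10. ACTB was the only member past 2-fold above Total in both replicates, and TMSB10 the only member past 2-fold below. Of all 3'UTRs with at least 50 reads over these libraries, 5.46% were higher and 20% lower by that rule, and of all regions 24.9% and 30.4%. The coding sequences of ACTB, ACTG1, CFL1 and PFN1 were all lower than Total in both replicates, as were 84.1% of all coding regions (1.04% were higher), and that of TMSB10 had too few reads. The slices did not show the ACTB difference jointly, with folds of 0.484 in G20, 1.23 in G35 and 3.62 in G45. Total gave most of its reads to few sites, and with the 10 most read sites left out of the totals the ACTB folds were 1.18 and 14.6, so HuR replicate 1 no longer passed, and ACTG1 came to be past 2-fold below in both replicates (0.0478 and 0.216) beside TMSB10 (0.0519 and 0.0608). With 1 Total library there is no replicate check and no test.

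The 3'UTR sites lay at different distances from the stop codon. In ACTB the most read 3'UTR site started 65 nt after the stop codon in all 6 libraries. It had the same ends (chr7:5567272-5567314, 43 nt) in G20, G35, G45 and HuR replicate 1, with 14, 14, 42 and 17 reads. In HuR replicate 2 the site extended to 137 nt after the stop codon (chr7:5567242-5567314) and held 1711 reads, 72.0% of the 3'UTR reads of the gene. ACTB also had a HuR site across the stop codon, from -45 to 10 with 19 reads in replicate 1 and from -51 to 36 with 177 reads in replicate 2, which made up 63.3% and 55.0% of the HuR reads counted as coding. G20 held 59 reads at a site there, from -45 to 16.

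In ACTG1 the most read HuR site was distal, from 546 to 609 nt after the stop codon in replicate 1 (34 reads) and from 455 to 617 nt in replicate 2 (866 reads). In CFL1 it lay from 162 to 186 nt in replicate 1 (8 reads) and from 210 to 318 nt in replicate 2 (591 reads), so the replicates differed, though replicate 1 had 12 reads at sites within the latter interval. In PFN1 nearly the whole 3'UTR was covered, from 46 to 225 nt in replicate 1 (188 reads) and from -6 to 235 nt in replicate 2 (3710 reads). In TMSB10 the most read HuR sites, with 3 and 9 reads, lay near the 3' end, from 171 to 203 nt and from 184 to 214 nt.

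**Figure D4:**
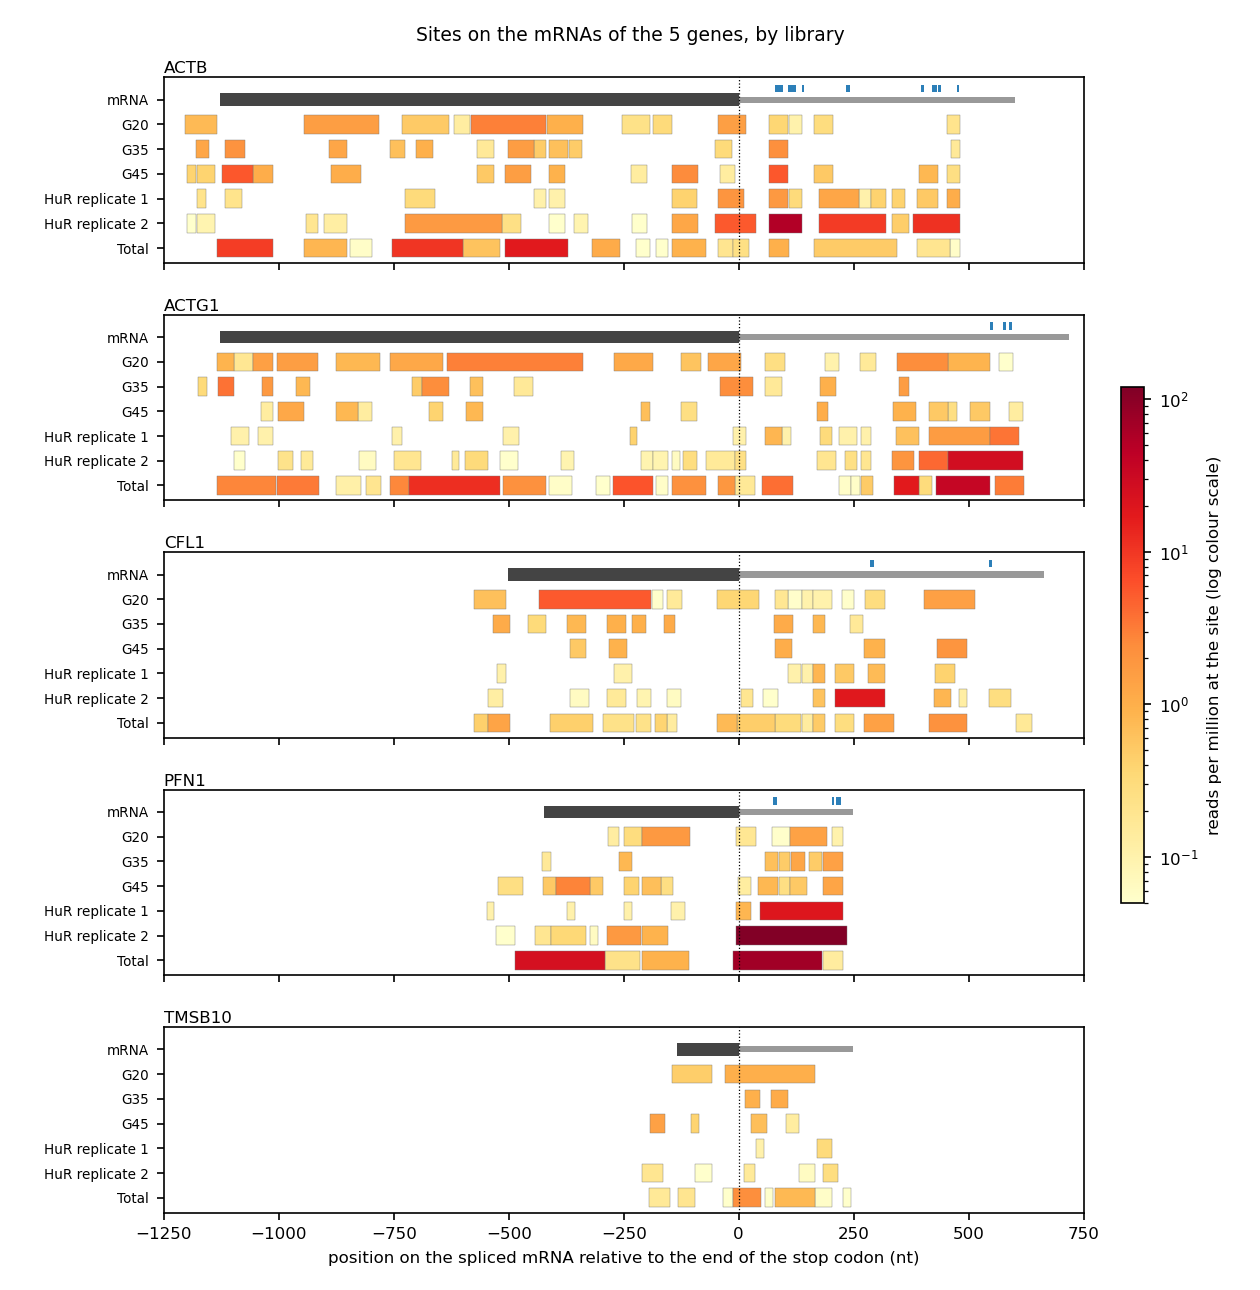
Sites on the spliced mRNA of each gene, 1 row per library, placed by their distance from the end of the stop codon (nt, dotted line at 0), with thick dark grey for coding sequence, thin light grey for 3'UTR and blue for U-rich motifs; colour gives RPM at the site on a log scale. The map draws 315 of the 329 mRNA sites, those with both ends in exons of the canonical transcript, and the darkest HuR blocks lie in the 3'UTRs of PFN1 and ACTB.

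The U-rich motifs were not evenly spread over the members. The 30-base windows of the 3'UTR that held any of these 3 motifs made up 34.9% in ACTB, 31.96% in PFN1, 9.71% in ACTG1, 8.68% in CFL1 and 0% in TMSB10, against 14.6% over the 3'UTRs of 19253 canonical transcripts. Of these transcripts, 82.3% held at least 1 of the motifs. The longest run of T in a member was 16 bases in ACTB, 109 to 124 nt after the stop codon, within its most read HuR replicate 2 site. In ACTG1 the only run of 5 or more T (588 to 595 nt) and both copies of ATTTA lay within its most read site of both HuR replicates. In CFL1 the longest run, 8 bases from 287 to 294 nt, lay within the most read site of HuR replicate 2.

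Counted by site, 29.6% of the members' 3'UTR sites in HuR replicate 1 (8 of 27) and 30.4% in HuR replicate 2 (7 of 23) held a motif, against 31.8% in G20, 26.7% in G35, 35.0% in G45 and 27.6% in Total. By site the libraries were thus alike. Weighted by reads the share was 78.2% and 95.9% in HuR, 11.6% in G20, 32.9% in G35, 53.2% in G45 and 53.6% in Total. For all other genes in HuR replicates 1 and 2, 23.8% and 30.2% of 3'UTR sites and 25.7% and 57.4% of 3'UTR reads had a motif. By reads, the other genes had 9.63% in G20, 16.5% in G35, 23.1% in G45 and 16.7% in Total, so the members were also above other genes without HuR. Sites with many reads are longer, and the median length of the members' sites was 32 and 36 nt in HuR, against 24 and 26 nt in other genes. All reads of a site count if it holds a motif anywhere. The most read HuR replicate 2 sites of PFN1, ACTG1 and CFL1 were 241, 163 and 109 nt long. The windows shown above for ACTG1 and CFL1 in HuR replicate 2 hold no motif.

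Conversion events, of which a read can carry up to 2, were more frequent in HuR. On the ACTB mRNA there were 14.4 events per 100 reads in G20, 57.1 in G35, 23.9 in G45, 88.6 and 105 in HuR replicates 1 and 2, and 12.1 in Total. In CFL1 the HuR values were 104 and 104 against 10.3, 78.3 and 26.8 in the slices, and in PFN1 91.0 and 95.8 against 11.3, 48.5 and 35.9, without overlap of the groups. The share of all genes that separate in this way was not counted, so the separation cannot be called particular to the members. In ACTG1 HuR replicate 1 (85.0) lay just below G35 (85.4), and in TMSB10 the groups overlapped, with 4 to 79 reads in each precipitated library. The exact two-sided permutation p was 0.2 in ACTB, CFL1 and PFN1, the smallest possible, 0.4 in ACTG1 and 0.6 in TMSB10. Over all other genes the mRNA sites held 20.9, 44.2 and 43.6 events per 100 reads in the slices, 45.0 and 97.9 in HuR and 26.7 in Total. Within 3'UTRs the members together had 93.5 and 99.2 events per 100 reads in HuR replicates 1 and 2, and all other genes 82.6 and 102.

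Within the interval of the most read HuR replicate 2 site, which was chosen by its reads, the libraries could be compared at the same place. At the ACTB interval there were 100 and 110 events per 100 reads in HuR, 61.1 in G20 (18 reads), 42.9 in G35 (14 reads), 21.4 in G45 (42 reads) and 40 in Total (35 reads). At that of CFL1 no event was seen in the 13, 1 and 7 reads of the slices, against 100 and 104 per 100 reads in HuR. At the PFN1 interval the values were 16.4, 37.04 and 30.4 in the slices, 90.8 and 95.8 in HuR and 12.8 in Total (2507 reads).

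**Figure D5:**
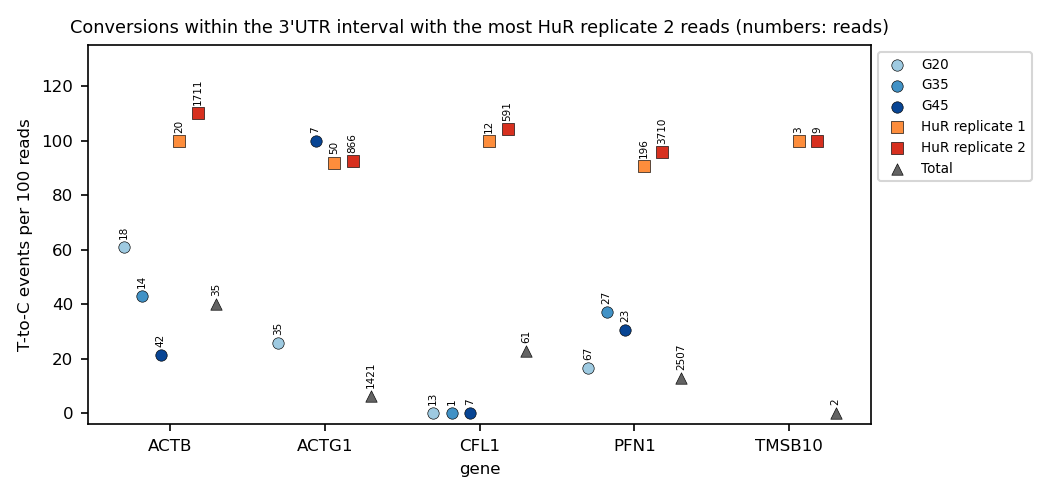
T-to-C conversion events per 100 reads at the sites that overlap the most read 3'UTR site of HuR replicate 2 in each gene, with the number of reads printed at each point. Squares (HuR) lie between 90.8 and 110, and the slices and Total lie lower except for G45 in ACTG1 (7 reads); no slice had a read at the TMSB10 interval.

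Nearly all HuR reads on the members lay at places where the control had a site. Of the members' HuR mRNA reads, 96.8% in replicate 1 (387 of 400) and 99.5% in replicate 2 (8333 of 8379) were at sites that overlapped a background site on the same strand, against 71.5% and 53.0% over all mRNA sites. The paper reports that sites with many reads overlap background more often. All mRNA sites were not matched to those of the members in reads or length, so the difference cannot be called particular to the members. Overlap was lower in TMSB10, at 25% (1 of 4 reads) and 60.9% (14 of 23 reads). In the 3'UTRs of the members 0 sites without background overlap had at least 5 reads in both HuR replicates. Only 13 of their 3'UTR sites in HuR replicate 1 and 19 in HuR replicate 2 had that many reads. The same count was not made over all genes, so the 0 cannot be called particular to the members. In the ACTB 3'UTR 5 of the 8 sites of HuR replicate 1 overlapped background, with 47 of its 56 reads.

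Many short pieces of these mRNAs occur elsewhere in the genome, and only uniquely mapping reads were kept. Of the 30-base pieces of the 3'UTR, the share with a single copy in GRCh37 was 38.2% in ACTB, 68.6% in ACTG1, 83.0% in CFL1, 94.1% in PFN1 and 92.2% in TMSB10. In the coding sequence it was 54.2% in ACTB, 66.3% in ACTG1, 75.9% in CFL1, 65.6% in PFN1 and 66.3% in TMSB10. The most frequent 30-base piece had 19 copies in ACTB and 24 in ACTG1. Between ACTB and ACTG1, 91.2% of coding bases were identical, compared to 49.4% of the gapped 3'UTR alignment. Levels of ACTB, and its 3'UTR share, leave out what lies in repeated pieces, and the part of this in the differences was not tested.

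The wider actin machinery was described by 9 lists with 70 genes in all. In the ratio fit 16 of them could be tested, 14 were called higher in HuR, none lower, and the median log2 change was 4.91, against 55% and 3.90 over all genes. Without the members it was 10 of 12, with a median of 4.37. WDR1 (3.86, adjusted p = 0.0744 in edgeR), a cofactor of cofilin, and DIAPH1 (3.08, adjusted p = 0.0635 in edgeR), a formin, did not pass in edgeR, and all 16 genes passed in DESeq2, where 1108 of the 1517 genes were called higher. Without HuR replicate 1 or 2 none passed. Both actin isoforms and both monomer-binding genes tested (PFN1 and CFL1) were called, as were 1 of 2 capping and severing genes, 4 of 5 nucleation and elongation genes, 2 of 2 bundling genes, 1 of 1 tropomyosins and 2 of 2 membrane linkers. No Arp2/3 subunit or non-muscle myosin had enough reads in both regions.

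Among the most read list genes, EZR (ezrin, which ties filaments to the membrane) had a log2 change of 8.20 ± 1.65 (adjusted p = 0.00856 in edgeR), with 3'UTR shares of 97.9% and 96.4% in HuR against 13.8%, 0% and 22.6% in the slices. ENAH, which elongates filaments, had 6.09 ± 1.49 (adjusted p = 0.0103 in edgeR), with 98.9% and 99.2% against 24.9%, 75% and 71.1%. ACTN4, an actin cross-linker, had 5.31 ± 1.33 (adjusted p = 0.0109 in edgeR), VCL (vinculin) 5.41 ± 1.47 (adjusted p = 0.0123 in edgeR) and TPM4 4.72 ± 1.71 (adjusted p = 0.0305 in edgeR). NCKAP1 of the WAVE complex had 3.43 ± 1.26 (adjusted p = 0.0314 in edgeR) and TMOD3, which caps pointed ends, 3.59 ± 1.36 (adjusted p = 0.0349 in edgeR).

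The remaining most read list genes could not be tested for the ratio. FLNA (filamin A) had HuR reads mostly outside the 3'UTR, with shares of 9.09% (22 mRNA reads) and 8.96% (67 mRNA reads) in HuR against 3.42%, 0% and 5.97% in the slices. MYH9 had 39.1% and 40.7% in HuR against 4.04%, 5% and 0% in the slices, and MYH10 16.7% (6 reads) and 32.8% against 5.26%, 20% and 0%. In CFL2, ACTR2, ARPC5, CAPZA1 and TPM3 the HuR shares lay between 92.3% (TPM3) and 100% (ARPC5). The slices overlapped them in CFL2 (77.8%, 100% and 100%), TPM3 (35%, 100% and 100%) and CAPZA1 (52.4%, 91.5% and 100%), and lay below them in ACTR2 (64.8%, 86.2% and 30.8%) and ARPC5 (8.42%, 87.0% and 16.7%). Some slice values rest on few mRNA reads. In G20, G35 and G45 there were 9, 11 and 16 in CFL2 and 20, 12 and 1 in TPM3, and ARPC5 had 6 in G45. In the level fit none of the 43 list genes tested was called in the 3'UTR, where 1.09% of all 3'UTRs were called higher and 1.54% lower, with a median of 0.90 against 0.88. In the coding sequence 13 of 24 were called lower, against 39.3% of all coding regions, with a median of -4.89 against -3.81.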

How the data were processed

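Sites of 6 PAR-CLIP libraries from HEK293 cells were analysed. The authors mapped trimmed single reads to hg19 with Bowtie, and PARalyzer made sites from unique alignments that carried at most 2 T-to-C conversions. For each site the authors deposited raw counts of its reads, conversion locations and conversion events. All 991 member sites and clusters matched GRCh37 in sequence. Each site was assigned by its midpoint to the Ensembl canonical transcript of GENCODE (coding before 3'UTR, 5'UTR and intron), and sites in more than 1 gene (0.262% to 3.60% of reads) were left out. Reads per region were tested with edgeR 4.0.16 (quasi-likelihood, TMM, filterByExpr, Benjamini-Hochberg, threshold 0.05), for the level over 19181 regions and for the 3'UTR to coding ratio over 1517 genes, with DESeq2 1.42.0 as an alternative. Counts were also simulated at a dispersion of 0.2, with the same expected proportions in every library apart from the changes put in. There, 16-fold changes were recovered for 100 of 100 regions in the level fit and 89 of 100 genes in the ratio fit, and 4-fold changes for 33 and 17. The composition differences between the real libraries were not simulated, so this recovery does not measure the power in these data. The background group is the 3 slices, called background replicates 1 to 3 for G20, G35 and G45. Members and lists were chosen with earlier results of these data known. Named list genes are at most the 2 most read genes of each list, and named sites the most read of each member and region. RPM refers to the reads of a library at all sites. Python 3.11.15, scipy 1.17.1 and R 4.3.3 were used. Sequences of PFN1 are not reported here.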

Additional observations from a re-analysis of the deposited data

Results flagged for a closer look

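CFL1 had HuR reads in its GENCODE span outside the canonical transcript, which the comparisons above do not use. They came to 2.94 RPM in HuR replicate 1 (28 reads at 22 sites) and 11.4 RPM in HuR replicate 2 (365 reads at 70 sites), above the 1.09 RPM of G20, 1.78 of G35, 1.33 of G45 and 2.34 of Total. With the 10 most read sites left out of the totals, HuR replicate 1 (3.06 RPM) lay below G20 (4.62) and Total (6.14). HuR replicate 2 (11.7) then still lay above every control library. On the strand opposite to the CFL1 canonical transcript, HuR replicate 1 had 0.420 RPM (4 reads) and HuR replicate 2 0.218 RPM (7 reads), where G20 and Total had 1 read each and G35 and G45 none. Both were singled out because, on the full totals, the level in each HuR replicate was above that in every control library, and no test was run on them. A level of 3 reads is 0.485 RPM in G35 and 0.398 in G45. The lack of opposite-strand reads there thus cannot show a level below the 0.218 RPM of HuR replicate 2. The GENCODE span of CFL1 (chr11:65590493-65629497) is also much longer than its canonical transcript (chr11:65622144-65625651).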

How the results depend on the processing

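No paired analysis was possible because only the HuR libraries carry replicate numbers in the labels, and the slices are numbered by size only. Leaving out 1 library at a time, the genes with a higher 3'UTR to coding ratio ranged from 0 (without HuR replicate 1 or 2) to 1386 (without G35), against 835, those with a lower ratio from 0 to 1, and the actin list genes called from 0 to 21. At an unadjusted p under 0.05 there were 991 genes without HuR replicate 1 and 470 without HuR replicate 2. The regions called by level ranged from 0 (without G20, 4936 at an unadjusted p under 0.05) to 1909 higher (without HuR replicate 1) and from 0 to 2341 lower (without G35). The share of the members' HuR reads at background sites ranged from 93.5% to 96.8% in HuR replicate 1 and from 99.1% to 99.5% in HuR replicate 2, lowest without G20.

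By level, 7131 regions were higher and 139 lower with library totals, 1190 and 3307 with DESeq2, 0 and 0 with RLE scaling (5763 at an unadjusted p under 0.05), and 0 and 0 with sites of 5 or more reads (1719 at an unadjusted p under 0.05). Regions called higher were 1466 without a filter, 746 with at least 50 reads in total, 1911 with conversion events and 220 with any overlap as the region rule, and those called lower were 20 with clusters. For the ratio, 0 genes were higher without a filter (2428 at an unadjusted p under 0.05), 20 with sites of 5 or more reads, where fewer genes were tested, and 50 with clusters, and 1 was lower with conversion events. Regions higher than Total were 1741 with the 10 most read sites out of the totals and 3656 with sites of 5 or more reads.

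Leaving out 1 library, the 3'UTR level ranged from -0.79 to 2.72 in ACTB, from -2.04 to 0.77 in CFL1 and from -1.09 to 1.04 in ACTG1. That of ACTG1 turned to 2.63 with library totals, 0.76 with conversion events, 0.55 without a filter, 1.04 without HuR replicate 1 and 0.33 without G20, and that of CFL1 to 2.06, 0.65 and 0.16 under the first 3 of these and 0.77 without HuR replicate 1. ACTB turned negative without HuR replicate 2. With any overlap PFN1 turned to -0.18 in level and -2.28 in ratio, because its HuR replicate 2 site touches the stop codon. None of these reversed values passed the threshold in edgeR. The share difference, in percentage points, was 16.3 in ACTB, 12.2 in ACTG1, 17.6 in CFL1 and -25.2 in PFN1 with sites counted in place of reads, 90.4 in ACTG1 with clusters, and, in PFN1, 3.27 with any overlap and -17.2 without the most read sites. Background overlap was 93.5% and 95.9% when at least 50% of a HuR site had to be covered, and 86% in HuR replicate 1 with background sites of 5 or more reads. The motif share was 11.6% in G20, 78.2% and 95.9% in HuR and 53.6% in Total by reads, and 53.8% in HuR replicate 1 for sites of 5 or more reads. Except where a construction is named, the cause was not tested. The use of all coding transcripts for the regions was chosen after seeing the data and kept the calls of the members. The members had 88 and 2703 mRNA reads for ACTB in the 2 HuR libraries and 4 and 23 for TMSB10, so the TMSB10 shares in HuR rest on few reads, and 3 slices of different size stand in for replicates.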

Other observations

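Introns of the members held between 0 and 86 reads in a library, the highest in PFN1 of HuR replicate 2. In TMSB10 the introns held at most 8 reads, in Total.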
